A study of Arabidopsis thaliana with 18 samples.

Results

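Whole embryos of Arabidopsis thaliana, the thale cress, at the 32-cell stage were compared with embryos at the 8-cell stage, to describe the net change in mRNA over the 2 division rounds between them. Each stage had 3 libraries, 6 of the 18 libraries of a series of 6 stages that runs from 2/4-cell to heart embryos. The genes compared were all those at 1 TPM or more in at least 3 of these 6 libraries, 16559 of the 27564 genes in the table. TPM is a gene's share of all transcripts of a library, scaled to one common total and corrected for transcript length. The embryos of both stages were dissected by hand, from plants grown at 22 °C under days of 16 h and nights of 8 h. The labels give no strain, genotype, hour of collection or number of embryos per library, and nothing says that replicates came from separate plants. The p-values and standard errors below therefore rest on the spread between libraries, which may be technical. Unless another fit is named, that spread is pooled over all 18 libraries of the series. A whole-embryo library also cannot tell a gene used by more cells from a gene with more transcripts per cell.

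In the Arabidopsis embryo the cells of the 8-cell stage divide in parallel to the surface and so separate an outer layer, the protoderm, from inner cells. The inner cells then divide further into precursors of vascular and ground tissue, the uppermost suspensor cell becomes the hypophysis that founds the root pole, and the apical part later forms the shoot apex flanked by 2 cotyledons. Auxin, a hormone carried from cell to cell by PIN proteins, and its response factor MP direct much of the basal part, while homeobox genes of the WOX family mark the apical and basal lineages from the first divisions.

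The libraries of each stage resembled each other more than those of the other stage. Pearson's r of log2(TPM + 1) across the 16559 genes, which are not independent replicates, was 0.945 to 0.953 within the 8-cell stage, 0.955 to 0.968 within the 32-cell stage and 0.872 to 0.912 between the stages. From 15391 to 16024 genes reached 1 TPM in an 8-cell library and 16707 to 16731 in a 32-cell library. Each library summed to the same total, which leaves sequencing depth unknown and allows no detection limit. Where 2 runs of 3 values are given, the first is 8-cell replicates 1 to 3 and the second 32-cell replicates 1 to 3. Embryo regulators were present in all 6 libraries, among them LEC1 (AT1G21970), a CCAAT-binding factor of embryo identity, at 352 to 504 TPM at the 8-cell stage and 313 to 459 at the 32-cell stage. Of 13 endosperm markers, 4 were at 0 in all 6 libraries and 12 did not pass the filter, and the list summed to 2.99 to 15.3 TPM at the 8-cell and 12.4 to 36.7 TPM at the 32-cell stage. Seed coat markers, 24 genes of flavonoid and mucilage synthesis and their regulators, of which 14 were tested and TT10 alone was at 0 throughout, summed to 111, 135 and 186 TPM in the 8-cell libraries and 191, 466 and 222 TPM in the 32-cell libraries. In 32-cell replicate 2 the flavonoid enzymes BAN (AT1G61720) and TT4 (AT5G13930) stood at 44.4 and 101 TPM, against 4.43 to 13.3 and 7.38 to 29.9 TPM in the other libraries. This library therefore stood apart in its seed coat transcripts, and counts without it are given where they move by more than 1.5 times.

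Of the 16559 genes, 2436 (14.7%) were called at a limma adjusted p under 0.05, 1893 (11.4%) higher and 543 (3.28%) lower at the 32-cell stage. The median change of all tested genes was 0.21 on the log2 scale, and 0.13 without 8-cell replicate 2, so single changes are best read against that value. Median-ratio scaling moved this median to 0.03 and the calls to 1447 higher (8.74%) and 983 lower (5.94%). Quantile normalization moved it to -0.03 and the calls to 1290 higher (7.79%) and 1107 lower (6.69%). The share of higher genes among those called was thus 77.7%, 59.5% and 53.8%. Without 32-cell replicate 1 the calls dropped to 1536, 1224 higher and 312 lower. Leaving out 8-cell replicate 2 gave 1259 higher, and leaving out 32-cell replicate 2 gave 351 lower. The 3 libraries of one stage lay wholly above those of the other for 4454 genes (26.9%) higher and 1587 genes (9.58%) lower at the 32-cell stage. Of the tested genes, 431 were under 1 TPM in every 8-cell library and at 1 TPM or more in every 32-cell library, and 354 of them were called higher. The reverse held for 65 genes, 36 of them called lower. Such genes passed the filter only through the stage in which they are high, so the counts over lists that follow are descriptions. Each of these counts is to be read against the 11.4% higher and 3.28% lower of all genes.

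**Figure D1:**
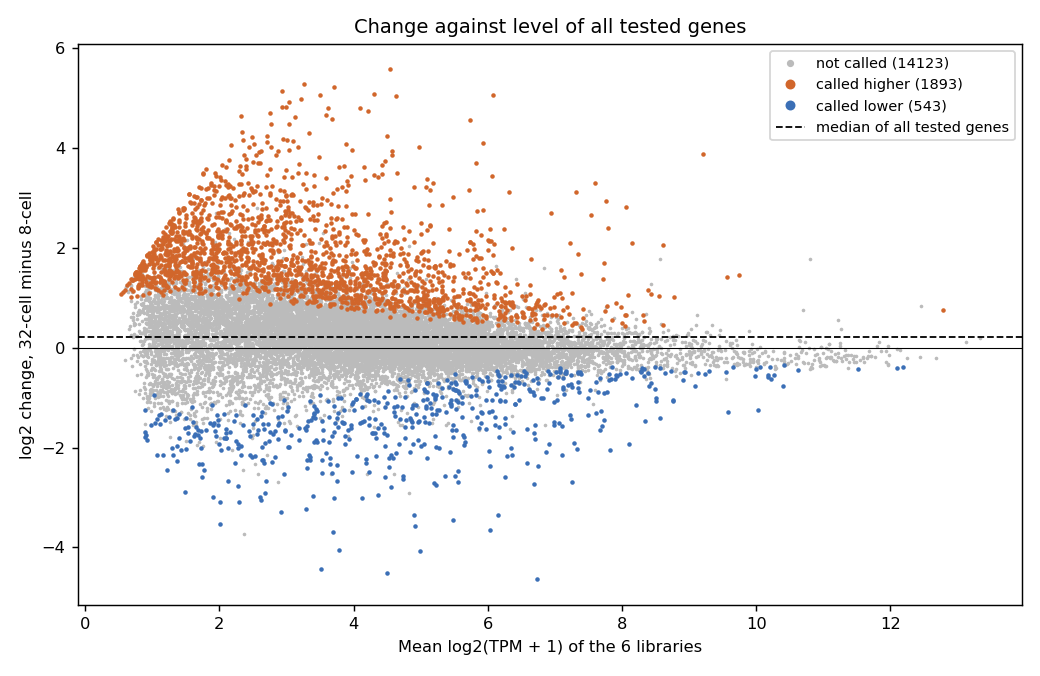
Each point is 1 of 16559 tested genes, with the mean log2(TPM + 1) of the 6 libraries on the x axis and the fitted log2 change, 32-cell minus 8-cell, on the y axis. The 1893 genes called higher and 543 called lower are coloured, and the dashed line is the median change of 0.21.

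Regulators of the shoot apex, of the boundary between the cotyledons and of cotyledon formation held the largest rise among all genes with a symbol. Of 34 genes on this list 18 were tested, 11 were called higher and 1 lower, against 11.4% and 3.28% of all genes, and their median change was 1.96 against 0.21. DRNL (AT1G24590), an AP2 transcription factor needed for cotyledon initiation, stood at 0.968, 1.76 and 0.796 TPM at the 8-cell stage and 63.8, 107 and 71.2 at the 32-cell stage. The 32-cell libraries all lay far above the 8-cell libraries, a 37.2-fold rise on the TPM + 1 scale (log2 change 5.22 ± 0.35 SE, limma adjusted p = 1.31e-08). Its close paralogue DRN (AT1G12980), which acts in the same process, moved the other way, from 177, 107 and 121 TPM to 27.6, 44.2 and 43.5 TPM (log2 change -1.79 ± 0.33 SE, limma adjusted p = 9.04e-04). All 8-cell libraries of DRN were above all its 32-cell libraries, so of this gene pair the more abundant member at the 8-cell stage was the less abundant one in each 32-cell library.

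The 3 CUP-SHAPED COTYLEDON genes, NAC transcription factors that keep the cotyledons apart and allow a shoot meristem to form between them, rose together. CUC1 (AT3G15170) went from 0.819, 0.387 and 0.184 TPM to 43.6, 44.5 and 32.1 TPM, a 28.2-fold rise (log2 change 4.82 ± 0.34 SE, limma adjusted p = 1.79e-08). CUC2 (AT5G53950) stood at 2.62, 1.35 and 4.36 TPM at the 8-cell stage and 68.9, 115 and 108 at the 32-cell stage. CUC3 (AT1G76420) stood at 4.61, 4.96 and 2.08 TPM and then 41.1, 32.3 and 27.8 TPM. Neither had overlapping stages, with rises of 26.9-fold (limma adjusted p = 6.34e-09) and 7.32-fold (limma adjusted p = 4.72e-05). STM (AT1G62360), the KNOX homeobox gene that keeps meristem cells undifferentiated, was at 0.1001, 0 and 0.124 TPM in the 8-cell libraries and 7.02, 1.501 and 4.11 TPM in the 32-cell libraries (log2 change 2.12 ± 0.37 SE, limma adjusted p = 4.36e-04), so it was near 0 in each 8-cell library and low in each 32-cell library. Its relative KNAT6 (AT1G23380) was already present at 2.61, 8.59 and 9.31 TPM and reached 35.1, 38.0 and 32.5 TPM (log2 change 2.35 ± 0.36 SE, limma adjusted p = 1.50e-04). WUS (AT2G17950), the stem cell organizer gene, was listed at 0, 0.191 and 0 TPM and then 1.17, 3.25 and 1.57 TPM. Its rise (limma adjusted p = 0.0188) was no longer called without 8-cell replicate 1 or 32-cell replicate 2, where the adjusted p reached 0.104, or under quantile normalization. ANT (AT4G37750), an AP2 gene of organ growth, and PAN (AT1G68640), a bZIP gene known from floral organ number, also rose (8.33-fold and 7.23-fold, limma adjusted p = 7.57e-07 and 1.07e-07). Among the 16 genes of the list that did not pass the filter, 5 were at 0 in all 6 libraries.

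**Figure D2:**
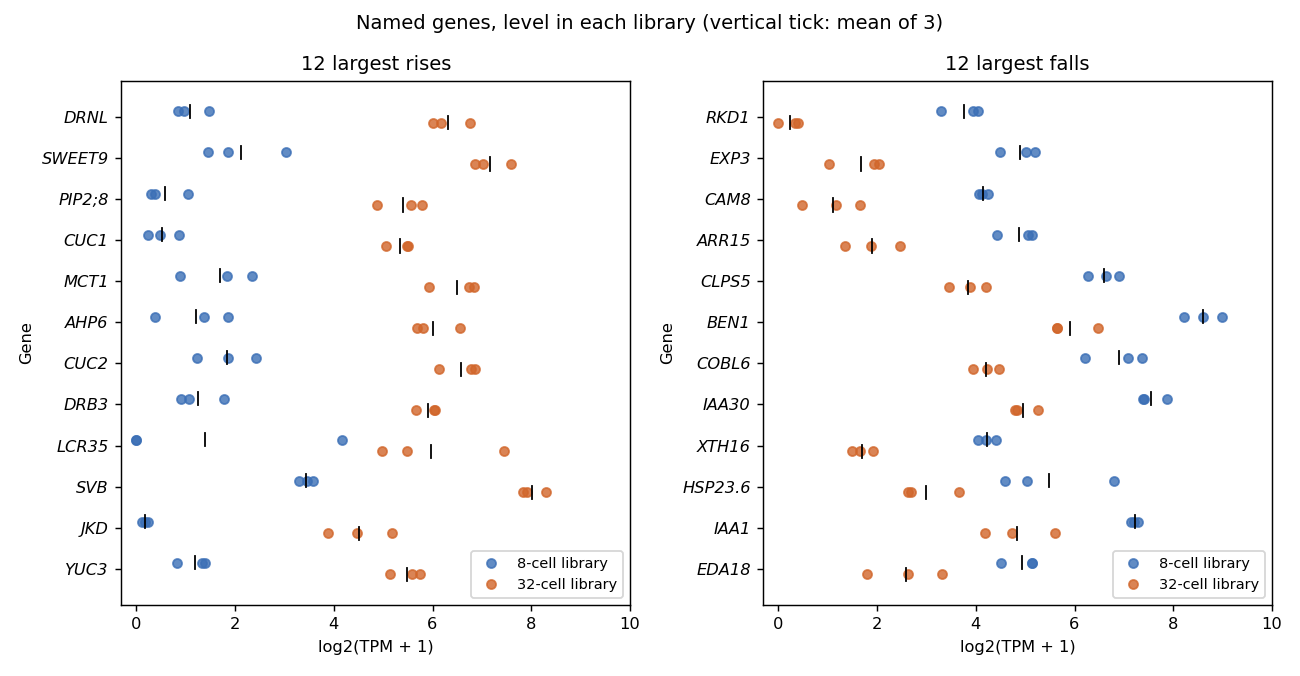
Level of the 12 genes with the largest rises and the 12 with the largest falls among called genes that carry a symbol and average at least 10 TPM in one of the stages, on a log2(TPM + 1) axis, with 1 point per library and a tick at the mean of 3. No gene shown has overlapping stages; the 8-cell libraries of LCR35, at 0, 0 and 16.9 TPM, are the most spread.

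Among genes of leaf polarity, which tell the upper from the lower side of later organs, 6 of 12 tested genes of a list of 17 were called higher and none lower, with a median change of 1.21. The largest rise of the list was that of an abaxial gene. KAN2 (AT1G32240), a GARP transcription factor of the lower side, stood at 0.184, 0.475 and 1.22 TPM at the 8-cell stage and 35.7, 22.9 and 21.8 at the 32-cell stage. Its relative KAN1 (AT5G16560) stood at 0.237, 0.176 and 0.195 TPM and then 13.1, 17.57 and 15.8 TPM, and both were at 1.22 TPM or less in each 8-cell library and at 13.1 TPM or more in each 32-cell library. The changes were 4.11 and 3.77 on the log2 scale (limma adjusted p = 4.63e-08 and 6.45e-08). YAB5 (AT2G26580), a YABBY gene, rose 10.2-fold (limma adjusted p = 2.00e-07), and ARF3 (AT2G33860), an auxin response factor of the abaxial side, went from 34.6–45.0 TPM to 161–167 TPM (log2 change 2.00 ± 0.24 SE, limma adjusted p = 8.52e-06). The other abaxial genes of the list, KAN3, FIL, YAB2, YAB3 and ARF4, were either not called or not tested. Of the class III homeodomain genes of the adaxial side, PHV (AT1G30490) rose from 6.56, 11.1 and 13.8 TPM to 42.9, 34.7 and 38.0 TPM (limma adjusted p = 2.78e-04). The others on the list were not called: PHB (AT2G34710) had a change of 0.56 (limma adjusted p = 0.101), REV (AT5G60690) of -0.64 (0.209) and ATHB15 (AT1G52150) of -0.18 (0.771). The fit of the 6 libraries called PHB higher (limma adjusted p = 0.0373) and REV lower (0.0471). The call of ZPR1 (AT2G45450), a small inhibitor of these factors, was lost under quantile normalization.

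Among regulators of the hypophysis and root 7 of 14 tested genes of a list of 17 were called higher and 1 lower, with a median change of 1.53. WOX5 (AT3G11260), the homeobox gene of the quiescent centre, stood at 1.57, 4.06 and 4.69 TPM at the 8-cell stage and 20.9, 29.6 and 22.2 at the 32-cell stage. Every 32-cell library was above every 8-cell library, a 5.95-fold rise (log2 change 2.57 ± 0.35 SE, limma adjusted p = 4.25e-05). The zinc finger genes WIP4 (AT3G20880) and WIP5 (AT1G51220), which with WIP2 (AT3G57670) are required for the embryonic root, rose from 0.729–2.49 TPM to 11.8–17.1 TPM and from 0–0.181 TPM to 3.06–8.55 TPM (limma adjusted p = 2.68e-05 and 3.56e-04). The rise of WIP2 itself, 1.74, was not called when 8-cell replicate 1 or 2 or 32-cell replicate 1 was left out (limma adjusted p at most 0.0643). HSFB4 (AT1G46264), also known as SCHIZORIZA and needed to set root tissue fates, was at 0.0545, 1.203 and 0.134 TPM and then 13.3, 15.8 and 8.74 TPM (log2 change 3.27 ± 0.47 SE, limma adjusted p = 7.52e-05). AIL6 (AT5G10510), the PLETHORA gene also called PLT3, rose 6.73-fold (limma adjusted p = 7.89e-05). Other PLETHORA genes of the same AP2 family were already abundant and were not called: PLT1 (AT3G20840) was at 65.5, 72.4 and 95.5 TPM and then 60.5, 42.8 and 60.3 TPM. PLT2 (AT1G51190) changed by -1.12 (limma adjusted p = 0.0742) and BBM (AT5G17430) by -0.62 (0.147). In all 3 the 8-cell libraries lay above the 32-cell libraries, and under median-ratio scaling all 3 were called lower (limma adjusted p = 0.047, 0.0147 and 0.0154). Median-ratio scaling called 4 genes of the list lower. The 1 call lower without it, BRX (AT1G31880), was lost when 8-cell replicate 1 or 3 or 32-cell replicate 1 or 2 was left out (limma adjusted p at most 0.153).

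Regulators of the inner tissues split into genes that rose and genes that fell. Of 18 tested genes of a list of 22, 9 were called higher and 3 lower, and the median change was 0.84. JKD (AT5G03150), a zinc finger protein that works with SHR and SCR in the ground tissue, was at 0.178, 0.138 and 0.0878 TPM at the 8-cell stage and 35.1, 21.1 and 13.7 at the 32-cell stage. It was near 0 in all 8-cell libraries and rose (log2 change 4.32 ± 0.34 SE, limma adjusted p = 7.36e-08). SHR (AT4G37650), the mobile GRAS factor made in the vascular tissue, stood at 3.58, 1.81 and 3.167 TPM and then 20.7, 21.1 and 15.0 TPM (log2 change 2.39 ± 0.38 SE, limma adjusted p = 2.07e-04). The rise of SCR (AT3G54220), its partner in the ground tissue, from 19.0–28.3 TPM to 38.2–57.6 TPM (limma adjusted p = 0.0214) was lost without 8-cell replicate 2 or 3 or 32-cell replicate 1 or 2, with an adjusted p of up to 0.115. In the vascular group TMO3 (AT4G23750) and TMO6 (AT5G60200), targets of MP, rose 3.82-fold and 6.47-fold (limma adjusted p = 2.90e-04 and 0.00317). The response factor MP (AT1G19850) itself rose from 79.2–128 TPM to 185–249.9 TPM (limma adjusted p = 0.0272), a call lost without any of 8-cell replicates 1 and 2 and 32-cell replicates 1 and 3.

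The 3 genes called lower all act in the vascular tissue. T5L1 (AT1G68810), a bHLH factor related to TMO5 that promotes vascular cell divisions, stood at 88.7, 75.1 and 67.7 TPM at the 8-cell stage and 15.0, 17.3 and 23.4 at the 32-cell stage. LOG4 (AT3G53450), an enzyme that activates cytokinin and a target of TMO5, stood at 127, 70.1 and 61.1 TPM and then 29.0, 48.5 and 29.6 TPM. ATHB8 (AT4G32880), a class III homeodomain gene of the procambium, was at 14.9, 11.4 and 11.6 TPM and then 2.16, 2.82 and 0.942 TPM. In all 3 the 8-cell libraries were wholly above the 32-cell libraries, with changes of -2.01, -1.21 and -2.24 (limma adjusted p = 1.34e-05, 0.00484 and 0.00177). TMO5 (AT3G25710) was not called, at 59.2, 41.6 and 47.1 TPM and then 29.8, 65.8 and 29.7 TPM, with overlapping stages (limma adjusted p = 0.541). AHP6 (AT1G80100), a pseudophosphotransfer protein that blocks cytokinin signalling in the vascular tissue, rose in the opposite sense, from 2.65, 1.58 and 0.308 TPM to 50.3, 92.9 and 55.3 TPM (28.0-fold, log2 change 4.81 ± 0.39 SE, limma adjusted p = 1.10e-07).

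Among genes of the protoderm and cuticle, part of the cuticle enzymes rose while the best known regulators of the outer layer were not called. Of 25 tested genes of a list of 27, 9 were called higher and none lower, with a median change of 0.76, and 0.38 without 8-cell replicate 2. Median-ratio scaling called 8 higher and 1 lower, and quantile normalization 9 and 2. CYP86A2 (AT4G00360), a cytochrome P450 that hydroxylates fatty acids for cutin, stood at 1.66, 0.815 and 0.759 TPM at the 8-cell stage and 27.2, 57.7 and 27.5 at the 32-cell stage. CER6 (AT1G68530), which lengthens fatty acids for wax, stood at 0.470, 0.478 and 1.22 TPM and then 32.3, 29.1 and 19.96 TPM. DCR (AT5G23940), an acyltransferase of cutin synthesis, was at 16.8, 18.18 and 23.1 TPM and then 283, 189.6 and 193 TPM. The stages were separate in all 3, with rises of 17.7-fold, 16.3-fold and 10.8-fold (limma adjusted p = 2.89e-05, 8.86e-06 and 9.30e-07). TWS1 (AT5G01075), the precursor of a peptide that reports gaps in the embryonic cuticle, rose from 17.3–18.6 TPM to 90.9–101 TPM (log2 change 2.38 ± 0.37 SE, limma adjusted p = 1.50e-04). LACS2 (AT1G49430), HTH (AT1G72970) and BDG1 (AT1G64670), further cuticle genes, rose by 1.88, 1.59 and 0.91 on the log2 scale (limma adjusted p = 0.00456, 1.27e-04 and 0.00476). ATML1 (AT4G21750), the homeodomain factor that specifies the epidermis, was at 99.9, 79.9 and 94.2 TPM and then 59.3, 54.2 and 60.6 TPM, so every 8-cell library lay above every 32-cell library, but it was not called (log2 change -0.64, limma adjusted p = 0.120). It was called lower under median-ratio scaling (limma adjusted p = 0.00865), under quantile normalization (0.0364) and in the fit of the 6 libraries alone (0.0171). Its partner PDF2 (AT4G04890) was at 78.1, 53.2 and 59.8 TPM and then 102, 74.3 and 85.5 TPM, with overlapping stages (limma adjusted p = 0.259). Their target PDF1 (AT2G42840), a proline-rich protein of the outer layer, was at 869 to 1670.0 TPM and 1674 to 2717 TPM (limma adjusted p = 0.0611) and was called higher under quantile normalization (0.0364) and in the fit of the 6 libraries (0.0473). The calls of FDH (AT2G26250) and ACR4 (AT3G59420) were lost when single libraries were left out, with adjusted p of up to 0.142 and 0.146. This held in both cases without 8-cell replicate 1 or 2 or any of the 32-cell replicates and for ACR4 also without 8-cell replicate 3 and under both scalings.

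Of the genes that mark the first lineages, WOX2 had the firmest change. WOX2 (AT5G59340), the homeobox gene of the apical lineage, stood at 194, 146 and 159 TPM at the 8-cell stage and 32.3, 41.0 and 34.6 at the 32-cell stage. Each 32-cell library held well under the lowest 8-cell level, a 4.52-fold fall (log2 change -2.18 ± 0.20 SE, limma adjusted p = 6.43e-07). WOX9 (AT2G33880) stood at 73.7, 85.4 and 159.6 TPM and then 38.2, 32.3 and 54.6 TPM (limma adjusted p = 0.0214). This fall was no longer called when 8-cell replicate 3 or 32-cell replicate 1 or 2 was left out, with an adjusted p of at most 0.114. WOX8 (AT5G45980), of the basal lineage, was at 31.9, 29.8 and 73.1 TPM and then 30.2, 36.2 and 24.96 TPM and was not called (limma adjusted p = 0.524). Over the whole list of early embryo and suspensor genes 1 of 10 tested, the LEC1 relative L1L, was called higher and 2, WOX2 and WOX9, lower, against 11.4% and 3.28% of all genes. The median change was -0.39, and -0.22 without 8-cell replicate 3 and -0.61 without 8-cell replicate 2. Median-ratio scaling called 3 of the list lower, against 5.94% of all genes, and quantile normalization 4, against 6.69%.

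The regulators that later drive seed maturation diverged within one family of B3 factors. LEC2 (AT1G28300) fell from 114, 89.4 and 75.2 TPM to 25.4, 22.6 and 30.4 TPM (log2 change -1.78 ± 0.25 SE, limma adjusted p = 5.43e-05). FUS3 (AT3G26790) rose from 4.53, 5.18 and 10.6 TPM to 54.5, 45.2 and 39.5 TPM (log2 change 2.68 ± 0.44 SE, limma adjusted p = 2.45e-04). ABI3 (AT3G24650) rose from 13.0–23.1 TPM to 49.9–72.4 TPM (limma adjusted p = 0.00351). The order of LEC2 and FUS3 was thus reversed: LEC2 was the higher of the pair in each 8-cell library and FUS3 in each 32-cell library. LEC1 was not called (-0.20, limma adjusted p = 0.672), while its relative L1L (AT5G47670) rose 12.4-fold, from 4.46, 8.84 and 1.44 TPM to 100.1, 54.8 and 43.0 TPM (limma adjusted p = 3.64e-05). In the maturation list 2 of 11 tested genes were called higher and 1 lower, and 13 of its 24 genes, mostly storage proteins, did not pass the filter.

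**Figure D3:**
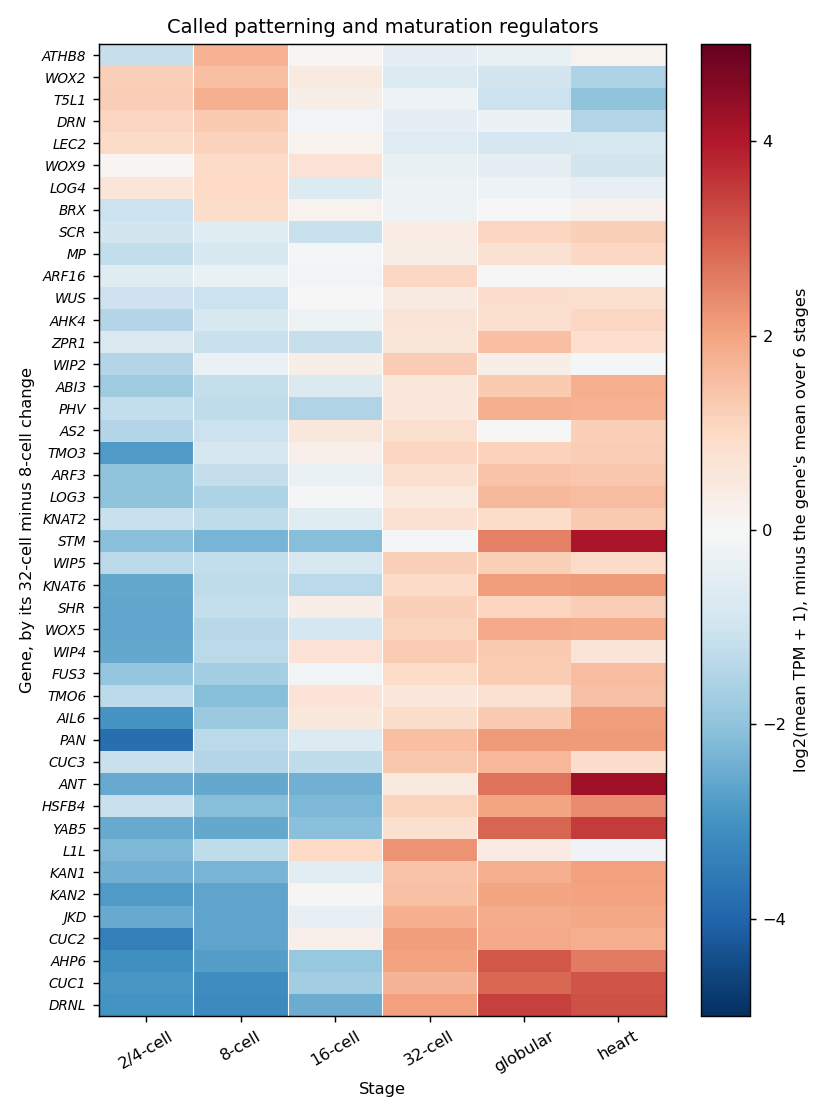
Colour shows the log2(mean TPM + 1) of each stage minus the gene's own mean over the 6 stages, for every called gene of the early embryo, shoot, polarity, root, inner tissue and maturation lists, in the order of the fitted change. WOX2, T5L1, DRN and LEC2 are above their own mean at the 8-cell stage and below it from the 32-cell stage on, while DRNL, CUC1 and AHP6 are below it up to the 16-cell stage and above it from the 32-cell stage on.

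Part of the genes of auxin synthesis and transport rose, while 2 Aux/IAA repressor genes fell. Of 44 tested genes of a list of 56, 17 were called higher and 3 lower, with a median change of 0.81, and 9 were called higher without 32-cell replicate 1. Median-ratio scaling called 16 higher and 5 lower, against 8.74% and 5.94% of all genes. YUC3 (AT1G04610), a flavin monooxygenase that makes auxin, stood at 0.764, 1.61 and 1.53 TPM at the 8-cell stage and 53.0, 47.0 and 34.1 at the 32-cell stage (19.8-fold, log2 change 4.31 ± 0.33 SE, limma adjusted p = 6.45e-08). YUC1 (AT4G32540) and YUC9 (AT1G04180) rose by 2.05 and 2.15 and TAR2 (AT4G24670), of the preceding step, by 1.88 on the log2 scale (limma adjusted p = 0.00101, 2.17e-04 and 0.00227). TAA1 (AT1G70560), the aminotransferase of that step with the higher level, was at 42.1 to 71.6 TPM and then 24.9 to 31.5 TPM and was not called (limma adjusted p = 0.0977), though both scalings called it lower (0.0343 and 0.0415). Among the PIN efflux carriers PIN4 (AT2G01420) rose from 0.913, 0.864 and 4.72 TPM to 10.2, 14.9 and 15.0 TPM (log2 change 2.38 ± 0.37 SE, limma adjusted p = 1.62e-04). The influx carrier LAX1 (AT5G01240) fell from 75.6–131 TPM to 42.1–51.5 TPM (limma adjusted p = 0.00418). The rises of its relatives AUX1 (AT2G38120) and LAX2 (AT2G21050) were lost without 8-cell replicate 2 or 32-cell replicate 1, and that of AUX1 also without 32-cell replicate 3, with adjusted p of up to 0.111 and 0.0844. The Aux/IAA repressor genes IAA30 (AT3G62100) and IAA1 (AT4G14560) stood at 234, 169.6 and 166 TPM and then 26.9, 27.6 and 37.2 TPM for the former. For the latter the values were 156, 141 and 147 TPM and then 17.3, 47.5 and 25.5 TPM. Both were several times lower in every 32-cell library, with falls of 6.03-fold and 5.19-fold (limma adjusted p = 1.08e-04 and 6.35e-04). IAA20 (AT2G46990), another member of that family, rose from 0–1.31 TPM to 3.91–9.53 TPM (limma adjusted p = 0.00266).

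Among the cytokinin genes described here 2 of breakdown rose and 2 type-A response regulators fell, though not every called gene of the list is named. Of 25 tested genes of a list of 39, 10 were called higher and 4 lower, with a median of 0.72. Leaving out 32-cell replicate 3 left 3 genes higher, 8-cell replicate 2 left 5, and 32-cell replicate 1 left 6. The cytokinin oxidases CKX7 (AT5G21482) and CKX5 (AT1G75450), which degrade the hormone, stood at 0.720, 0.468 and 0.890 TPM at the 8-cell stage and 37.5, 17.41 and 14.1 at the 32-cell stage for the former. For the latter the values were 0.544, 0.238 and 0.607 TPM and then 17.5, 8.30 and 13.8 TPM. Both were under 1 TPM in each 8-cell library (3.71 and 3.23 on the log2 scale, limma adjusted p = 1.57e-05 and 1.71e-05). ARR15 (AT1G74890), a type-A response regulator that cytokinin induces and that dampens the response, fell from 34.3, 32.4 and 20.6 TPM to 2.67, 1.57 and 4.55 TPM (7.85-fold, log2 change -2.97 ± 0.35 SE, limma adjusted p = 9.18e-06). ARR4 (AT1G10470), of the same type, fell from 40.4–70.1 TPM to 15.4–25.7 TPM (limma adjusted p = 0.00195). Of the other type-A genes ARR5 (AT3G48100) and ARR7 (AT1G19050) were not called, with changes of -0.90 and 0.72 (limma adjusted p = 0.0680 and 0.155), though both scalings called ARR5 lower (0.0285 and 0.00838). The list also holds the type-A genes ARR3, ARR6, ARR8, ARR9, ARR16 and ARR17, which are not described here. The receptor AHK4 (AT2G01830) and the type-B regulators ARR1 (AT3G16857), ARR10 (AT4G31920) and ARR12 (AT2G25180) were called higher, but each lost its call without at least 2 of the 6 libraries, 8-cell replicate 2 and 32-cell replicate 3 in all 4 cases, and ARR12 also under both scalings, with adjusted p of up to 0.112, 0.117, 0.0752 and 0.155.

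In the gibberellin and brassinosteroid list 6 of 25 tested genes were called higher and 1 lower, and 3 higher without 8-cell replicate 2 or 32-cell replicate 1. GA2OX2 (AT1G30040), which inactivates gibberellin, stood at 0.233, 0.363 and 0.307 TPM at the 8-cell stage and 20.6, 28.3 and 21.1 at the 32-cell stage, an 18.5-fold rise (log2 change 4.21 ± 0.45 SE, limma adjusted p = 2.56e-06). BEN1 (AT2G45400), a reductase thought to inactivate brassinosteroids, was at 509, 298 and 387 TPM and then 49.0, 48.9 and 87.7 TPM. It fell 6.44-fold (log2 change -2.69 ± 0.26 SE, limma adjusted p = 1.16e-06), while DWF4 (AT3G50660), a hydroxylase of brassinosteroid synthesis, rose from 33.9–51.0 TPM to 111–131 TPM (limma adjusted p = 2.25e-04).

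Growth-regulating factors and their coactivators, which promote cell proliferation in organ primordia, rose almost as a group. Of 9 tested genes of a list of 12, 7 were called higher and none lower, with a median change of 1.78, and the count stayed at 7 without each of the 6 libraries in turn. GIF1 (AT5G28640), the coactivator also called ANGUSTIFOLIA3, stood at 12.9, 20.5 and 16.9 TPM at the 8-cell stage and 171, 147 and 152 at the 32-cell stage (8.99-fold, log2 change 3.169 ± 0.27 SE, limma adjusted p = 2.00e-07). GRF5 (AT3G13960) was under 1 TPM in each 8-cell library and at 10.5, 7.98 and 13.3 TPM in the 32-cell libraries (limma adjusted p = 4.96e-07). GRF2 (AT4G37740) rose from 22.4–42.6 TPM to 106–113 TPM (limma adjusted p = 5.28e-05), and GRF1 (AT2G22840), GRF3 (AT2G36400), GRF4 (AT3G52910) and GRF9 (AT2G45480) rose by 1.498 to 2.46 on the log2 scale. GIF2 (AT1G01160), the most abundant member at the 8-cell stage, was at 246, 236 and 226 TPM and then 209, 176 and 221 TPM and was not called (limma adjusted p = 0.277).

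Genes of DNA replication, mitosis and histones were not called. None of 14 DNA replication genes, 23 mitotic genes and 13 genes of the histones H3.1 and H4 passed the limma test. At an unadjusted p under 0.05 there was 1 gene in each of the 3 lists. The fit of the 6 libraries alone, which called 13.6% higher and 4.2% lower, called 1 mitotic gene higher. Median-ratio scaling called 2 replication genes lower, and leaving out 8-cell replicate 1 gave 1 histone gene lower. Median changes were -0.08, 0.18 and 0.13, against 0.21 over all genes. They depended on single libraries: without 8-cell replicate 1 they were 0.12, 0.26 and -0.17, and without 8-cell replicate 2 -0.30, 0.00 and 0.31. Leaving out 8-cell replicate 3 put the histone median at 0.29, and leaving out 32-cell replicate 1 put it at 0.21. Leaving out 32-cell replicate 2 put the histone median at 0.06 and the replication median at -0.05. PCNA1 (AT1G07370), the replication clamp, was at 386, 270.2 and 423 TPM at the 8-cell stage and 259.9, 258 and 269.8 at the 32-cell stage (limma adjusted p = 0.163, and 0.0114 under median-ratio scaling). CYCB1;1 (AT4G37490), a cyclin of mitosis, was at 149.5, 72.2 and 104 TPM and then 96.1, 108 and 90.0 TPM (0.881). The stages of PCNA1 were barely separate, with the lowest 8-cell library just above the highest 32-cell library, and those of CYCB1;1 overlapped. Near-identical histone genes share reads that the counting could split among them. Of 19 tested genes of G1 control 2 were called higher and 2 lower, against 11.4% and 3.28% of all genes. Quantile normalization called 1 higher and 5 lower, against 7.79% and 6.69%. CYCD3;1 (AT4G34160), a D-type cyclin, rose from 12.8, 22.7 and 12.5 TPM to 48.2, 49.4 and 43.4 TPM (log2 change 1.55 ± 0.29 SE, limma adjusted p = 0.00101). The calls of CYCD5;1 (AT4G37630), CYCD3;3 (AT3G50070) and CYCD1;1 (AT1G70210) were lost on leaving out most or all single libraries (adjusted p up to 0.0969, 0.129 and 0.161). With any 1 of the 6 libraries left out, 0 genes of G1 control were called lower.

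Of 34 genes of DNA methylation and small RNA pathways, all tested, 6 were called higher and 2 lower, against 11.4% and 3.28% of all genes. The higher count was 3 without 8-cell replicate 2 or 32-cell replicate 1, and none was called lower without 8-cell replicate 1 or 32-cell replicate 1 or 2. Median-ratio scaling called 6 higher and 5 lower, against 8.74% and 5.94% of all genes. Quantile normalization called 3 higher and 2 lower, against 7.79% and 6.69%. AGO9 (AT5G21150), an Argonaute known from the germ line, rose from 100.2, 57.5 and 84.3 TPM to 217, 268 and 220.0 TPM (log2 change 1.56 ± 0.23 SE, limma adjusted p = 8.41e-05). The DNA demethylase DME (AT5G04560) rose from 1.66, 2.37 and 3.90 TPM to 8.89, 7.79 and 8.77 TPM (limma adjusted p = 0.00439). AGO1 (AT1G48410) and AGO4 (AT2G27040), the main Argonautes of the microRNA and heterochromatin pathways, were not called (limma adjusted p = 0.520 and 0.577). Of the others, 1 of 11 Polycomb genes, RING1B (AT1G03770), and 1 of 6 SPL genes that miR156 targets, SPL11 (AT1G27360), were called higher, near the 11.4% of all genes, and both calls were lost under both scalings and without 8-cell replicate 2 or any of the 32-cell replicates, that of RING1B also without the other 8-cell replicates (limma adjusted p up to 0.127 and 0.176).

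Most tested nuclear genes of photosynthesis rose. Of 37 tested genes of 46, 31 were called higher and none lower, with a median change of 2.19. The count was 27 under median-ratio scaling, 23 under quantile normalization, 24 without 32-cell replicate 2 and 20 without 8-cell replicate 2. RBCS1A (AT1G67090), a small subunit of the carbon-fixing enzyme Rubisco, stood at 3.03, 7.11 and 13.4 TPM at the 8-cell stage and 144, 76.5 and 179 at the 32-cell stage. PETC (AT4G03280), the Rieske protein of the cytochrome complex, stood at 0.785, 4.46 and 5.40 TPM and then 67.2, 54.3 and 62.1 TPM. PSBW (AT2G30570), a photosystem II subunit, was at 0.734, 2.99 and 9.04 TPM and then 50.1, 45.2 and 57.2 TPM. The 32-cell libraries were all above the 8-cell libraries, with rises of 16.3-fold, 15.6-fold and 12.6-fold (limma adjusted p = 3.63e-05, 9.62e-05 and 5.37e-05). The rise extended to both photosystems and the ATP synthase, with PSAF (AT1G31330) at 2.57, LHCA4 (AT3G47470) at 2.29 and ATPC1 (AT4G04640) at 2.70 on the log2 scale (limma adjusted p = 3.08e-04, 8.31e-04 and 1.10e-05). The 46 genes summed to 94.3, 131 and 262 TPM in the 8-cell libraries and 958, 717 and 1050.3 TPM in the 32-cell libraries. Near-identical RBCS and LHCB1 copies cannot be told apart with certainty.

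Chlorophyll synthesis genes and their GLK regulators behaved likewise: 9 of 12 tested were called higher and none lower, 5 under quantile normalization, with a median change of 1.46. CRD1 (AT3G56940), the cyclase of the pathway, stood at 0.314, 1.79 and 3.46 TPM at the 8-cell stage and 24.4, 14.5 and 19.7 at the 32-cell stage (log2 change 2.99 ± 0.46 SE, limma adjusted p = 1.27e-04). CHLI1 (AT4G18480) and CHLM (AT4G25080), of the chelatase and the methylation step, rose 3.72-fold and 3.18-fold (limma adjusted p = 1.09e-04 and 5.06e-05). GLK1 (AT2G20570) and GLK2 (AT5G44190), the factors that turn on this programme, were at 2.57, 1.71 and 2.36 and 2.30, 1.38 and 1.93 TPM in the 32-cell libraries after at most 0.661 and 0.0705 TPM, and both calls were lost under quantile normalization. The seed coat is green tissue, and 3 of 14 tested seed coat markers were called higher: TT5 (AT3G55120), TT6 (AT3G51240) and SBT1.7 (AT5G67360), with changes of 1.94, 1.95 and 1.63 (limma adjusted p = 0.00658, 0.00118 and 0.00228). The summed seed coat markers were highest in 32-cell replicate 2, in which the summed photosynthesis genes were the lowest of the 32-cell stage. In the 8-cell libraries both sums had the same order, at 111, 135 and 186 TPM and 94.3, 131 and 262 TPM. The summed endosperm markers had the order of the photosynthesis genes within each stage, at 2.99, 6.24 and 15.3 TPM and then 26.7, 12.4 and 36.7 TPM. The endosperm marker SUC5 (AT1G71890), a sucrose transporter, was at 2.75, 6.03 and 14.4 TPM and then 24.1, 10.6 and 35.1 TPM. The stages overlapped, and its call (limma adjusted p = 0.0475) was lost without any of 8-cell replicates 1 and 2 and 32-cell replicates 1 and 3 and under both scalings. The part of such tissue in the photosynthesis result was not tested.

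Transcripts encoded in the organelles fell in part. Plastid-encoded genes summed to 3229, 3273 and 3925 TPM at the 8-cell stage and 1902, 1558 and 2409 TPM at the 32-cell stage, and of 56 tested 4 were called lower and none higher, with a median change of -0.54. The 4 include ATCG00830 and ATCG01310, whose values are identical copies of each other, and 1 call was left without 8-cell replicate 1, 8-cell replicate 3, 32-cell replicate 1 or 32-cell replicate 2, and 2 without 32-cell replicate 3. Mitochondrion-encoded genes summed to 4656, 4561 and 5639.9 TPM and then 1669, 2015 and 2026 TPM, and 7 of 24 tested were called lower and none higher, 3 without 32-cell replicate 1 and 4 without 32-cell replicate 3, 8-cell replicate 1 or 8-cell replicate 3. Other settings moved the counts both ways. Without the filter 1 plastid and 4 mitochondrial genes were called lower. Robust moderation and a pseudocount of 0.1 each called 4 plastid and 5 mitochondrial genes lower. Quantile normalization called 6 and 5, against 6.69% of all genes. The fit of the 6 libraries alone, which called 4.2% of all genes lower, called 8 plastid and 11 mitochondrial genes. With the replicate block added it called 18 plastid and 18 mitochondrial genes lower. ATMG01390, with 385, 637 and 623 TPM at the 8-cell stage and 118, 151 and 156 at the 32-cell stage, held separate stages (log2 change -1.92 ± 0.37 SE, limma adjusted p = 0.00141). RNA was captured on poly(A) beads. How much organelle RNA such beads take up in each library is not given, so these are shares of captured RNA.

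Further metabolic genes rose in smaller shares. Of 24 genes of plastid fatty acid synthesis 4 were called higher and none lower, 2 without 8-cell replicate 2 or 32-cell replicate 1, which is near the 11.4% of all genes. Quantile normalization called 6 higher, against 7.79% of all genes, and the fit of the 6 libraries alone 8, against 13.6%. The median change of the list was 0.51, against 0.21 over all genes. The acyl carrier proteins ACP4 (AT4G25050) and ACP5 (AT5G27200) stood at 0.421, 2.63 and 2.15 TPM at the 8-cell stage and 36.2, 28.6 and 30.1 at the 32-cell stage for the former. For the latter the values were 3.67, 5.74 and 7.45 TPM and then 49.3, 41.3 and 32.3 TPM. Both were separate between stages (3.68 and 2.69, limma adjusted p = 8.41e-05 and 1.95e-05), while the abundant ACP1 (AT3G05020) changed by 0.54, a call lost under median-ratio scaling and when 8-cell replicate 1 or 2 or 32-cell replicate 1 was left out (limma adjusted p at most 0.0904). Of 10 tested genes of sulfate uptake and sulfur limitation 4 were called higher, and 6 without 8-cell replicate 2. SULTR1;2 (AT1G78000), a root sulfate importer, was at 0.188, 0.302 and 0.0957 TPM and then 12.3, 4.32 and 10.2 TPM (log2 change 2.96 ± 0.37 SE, limma adjusted p = 1.44e-05). GGCT2;1 (AT5G26220), which breaks down glutathione, was at 0.920, 2.92 and 2.46 TPM and then 19.3, 17.1 and 40.5 TPM (log2 change 3.06 ± 0.38 SE, limma adjusted p = 1.50e-05).

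Clock genes were uneven, with 6 of 18 tested called higher and 1 lower. The morning genes LHY (AT1G01060) and CCA1 (AT2G46830), a pair of MYB factors, stood at 5.17, 5.22 and 8.74 TPM at the 8-cell stage and 34.6, 27.5 and 25.5 at the 32-cell stage for LHY. For CCA1 the values were 5.83, 4.86 and 5.57 TPM and then 21.5, 15.2 and 20.9 TPM (limma adjusted p = 1.17e-04 and 0.00267). PRR9 (AT2G46790), which follows them in the day, rose from 0.544–3.74 TPM to 7.27–12.6 TPM (limma adjusted p = 0.00305), and the evening gene ELF4 (AT2G40080) fell from 8.00–11.6 TPM to 0.893–4.17 TPM (limma adjusted p = 0.00363). TOC1 (AT5G61380) and GI (AT1G22770), also evening genes, were not called (limma adjusted p = 0.630 and 0.785). The hour of collection is not given, so stage and time of day cannot be told apart here.

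Small cysteine-rich proteins held some of the largest values. Of 107 LCR and SCRL genes, 44 were at 0 in all 6 libraries and 27 were tested, of which 9 were called higher and 1 lower, and 5 higher without 8-cell replicate 1 or 32-cell replicate 3. LCR48 (AT3G48231) stood at 122, 185 and 161 TPM at the 8-cell stage and 1987, 2856 and 2083 at the 32-cell stage, a 14.7-fold rise (log2 change 3.88 ± 0.54 SE, limma adjusted p = 5.30e-05) to at least 1987 TPM in each 32-cell library. LCR68 (AT2G02130) stood at 951, 1305 and 1397 TPM and then 575, 446 and 459 TPM and fell (limma adjusted p = 0.00281). LCR35 (AT2G22121) was at 0, 0 and 16.9 TPM and then 44.0, 30.7 and 174 TPM. It was listed at 0 in 8-cell replicates 1 and 2, and its rise (limma adjusted p = 0.00669) reached an adjusted p of 0.0467 with 1 library left out. Related members of this family may share reads.

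Heat shock and wounding genes fell in part. Of 20 tested genes of 26, 6 were called lower and none higher, with a median change of -1.10, but 1 was called without 8-cell replicate 2 or 32-cell replicate 2 and 3 without 8-cell replicate 1. In the other direction, 9 were called lower without 8-cell replicate 3. Quantile normalization called 10 lower, against 6.69% of all genes, and the fit of the 6 libraries alone 9, against 4.2%. ZAT12 (AT5G59820), a zinc finger gene of general stress, was at 54.1, 65.8 and 36.5 TPM at the 8-cell stage and 10.5, 6.47 and 19.0 at the 32-cell stage and kept its call in all alternatives (log2 change -2.11 ± 0.50 SE, limma adjusted p = 0.00639). HSP23.6 (AT4G25200), a mitochondrial heat shock protein, was at 31.8, 111 and 23.2 TPM and then 11.6, 5.41 and 5.17 TPM. Its fall (limma adjusted p = 0.0137) was lost without 8-cell replicate 2 or 32-cell replicate 2 or 3, with an adjusted p of at most 0.102. The list summed to 1039, 1856 and 729.9 TPM and then 365, 385 and 719 TPM, so 32-cell replicate 3 lay close to 8-cell replicate 3.

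**Figure D4:**
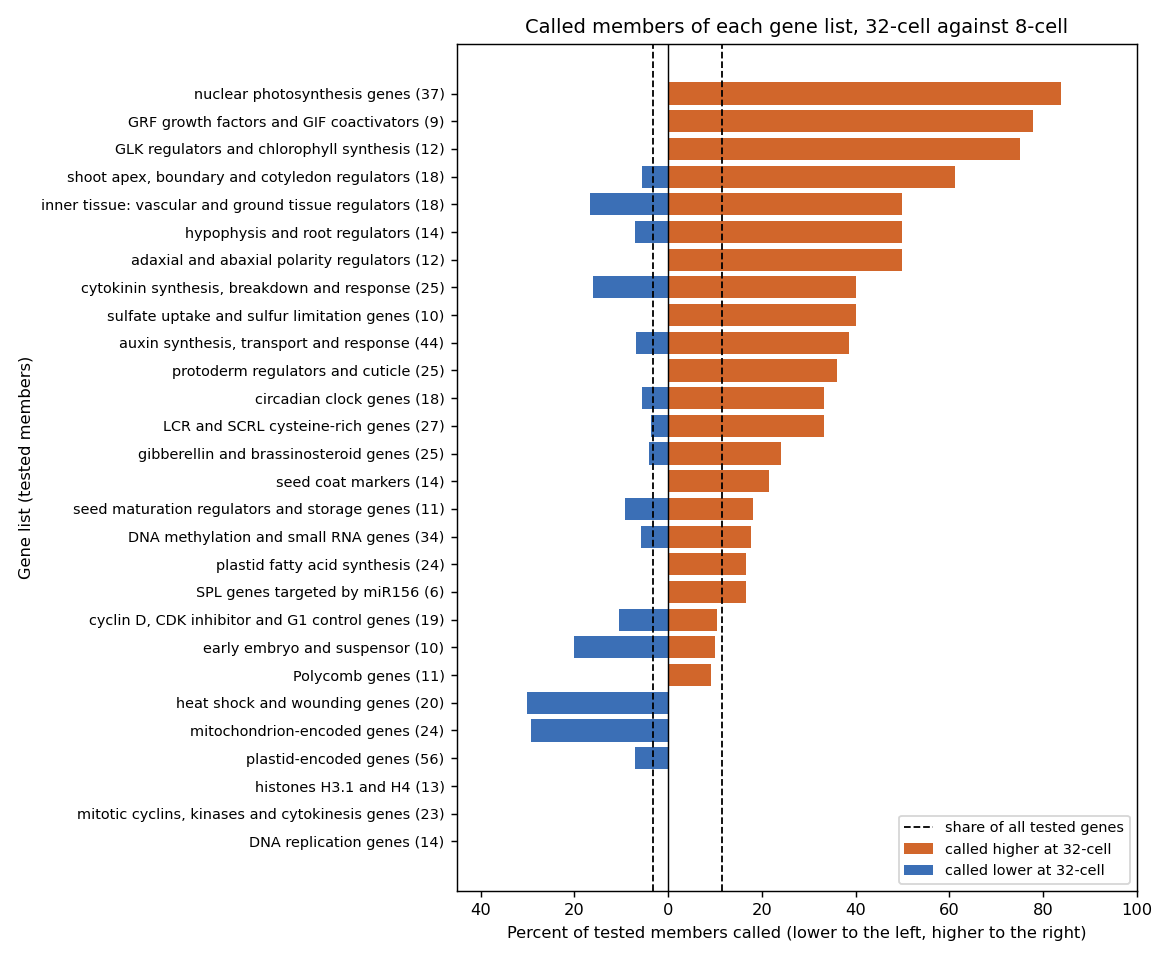
Percent of the tested members of each list called higher (right) or lower (left) at the 32-cell stage, with the number tested in brackets and dashed lines at the 11.4% and 3.28% of all tested genes. Photosynthesis (31 of 37), growth-regulating factors (7 of 9) and chlorophyll synthesis (9 of 12) are at the top in this fit, and replication, mitotic and histone genes have no call.

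The remaining genes with the largest changes had separate stages and kept their calls in all alternatives that tested them unless said otherwise. SWEET9 (AT2G39060), a sucrose exporter known from nectaries, stood at 1.74, 2.64 and 7.23 TPM at the 8-cell stage and 192, 128 and 115 at the 32-cell stage (log2 change 5.03 ± 0.40 SE, limma adjusted p = 7.73e-08). PIP2;8 (AT2G16850), an aquaporin of the plasma membrane, was at 0.238, 1.08 and 0.293 TPM and then 46.1, 28.3 and 54.4 TPM (log2 change 4.83 ± 0.47 SE, limma adjusted p = 9.21e-07). Both were under 8 TPM in each 8-cell library and at 28.3 TPM or more in each 32-cell library. SVB (AT1G56580), named for its effect on trichome branching, stood at 8.84, 9.99 and 10.95 TPM and then 313, 239.9 and 228 TPM (log2 change 4.57 ± 0.28 SE, limma adjusted p = 4.59e-09). MCT1 (AT1G37140), a MEI2-like RNA-binding protein, and DRB3 (AT3G26932), a double-stranded RNA-binding protein, rose from 0.837–4.11 TPM to 59.8–114 TPM and from 0.878–2.44 TPM to 49.5–65.5 TPM (limma adjusted p = 1.26e-07 and 4.29e-08).

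Among the falls, RKD1 (AT1G18790), an RWP-RK factor of a family known from the egg cell, stood at 15.6, 8.87 and 14.4 TPM at the 8-cell stage and 0.312, 0.259 and 0 at the 32-cell stage. It was listed at or near 0 in each 32-cell library, an 11.5-fold fall (log2 change -3.53 ± 0.50 SE, limma adjusted p = 5.40e-05). EXP3 (AT2G37640), an expansin that loosens cell walls, was at 35.6, 31.6 and 21.6 TPM and then 1.05, 2.82 and 3.101 TPM (log2 change -3.24 ± 0.37 SE, limma adjusted p = 5.88e-06). XTH16 (AT3G23730), a xyloglucan-modifying wall enzyme, was at 20.3, 15.4 and 17.57 TPM and then 1.81, 2.77 and 2.17 TPM (log2 change -2.53 ± 0.53 SE, limma adjusted p = 0.00259). CAM8 (AT4G14640), a calmodulin-like calcium sensor, CLPS5 (AT5G39930), related to an mRNA 3′ end processing factor, and COBL6 (AT1G09790), a COBRA-like wall protein, fell 8.24-fold, 6.76-fold and 6.43-fold (limma adjusted p = 9.90e-05, 4.60e-06 and 2.17e-04). EDA18 (AT2G34920), named for an arrest of the embryo sac, was at 34.4, 22.0 and 34.1 TPM and then 8.96, 2.496 and 5.17 TPM, and its call (limma adjusted p = 0.0107) was lost without 32-cell replicate 2 (adjusted p = 0.0671). In addition 2 genes without a symbol rose more than DRNL and 8 fell more than RKD1; they are outside the rule for named genes, and the extreme on each side was picked after its values were seen. AT3G15680 stood at 2.1995, 2.57 and 2.35 TPM and then 176, 98.1 and 236 TPM (log2 change 5.58 ± 0.48 SE, limma adjusted p = 2.08e-07). AT1G53930 stood at 588, 474 and 534 TPM and then 15.0, 25.2 and 22.2 TPM (log2 change -4.64 ± 0.63 SE, limma adjusted p = 4.07e-05), so each 32-cell library lay far below each 8-cell library.

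At the 16-cell stage, whose libraries differed more among themselves, most called genes lay between the stages compared. Of the 1893 genes called higher, 1601 had a 16-cell mean between the 8-cell and 32-cell means, 257 lay below the 8-cell mean and 35 above the 32-cell mean, and the median gene had gone through 35.02% of its log2 change. Of the 543 called lower, 470 lay between, 17 above the 8-cell mean and 56 below the 32-cell mean, with a median of 53.5%. Without 16-cell replicate 3 the medians were 39.3% and 51.0%. The difference between the 2 sets was not tested. DRNL, at 2.503 ± 2.41 TPM (mean ± SD, n = 3), CUC1, at 2.71 ± 2.05 TPM, and AHP6, at 3.48 ± 2.77 TPM, were far below their 32-cell levels at the 16-cell stage. CUC2, at 27.0 ± 10.5 TPM, and KAN2, at 9.66 ± 2.48 TPM, were further along. ARR15 stood at 9.06 ± 3.98 TPM and WOX2 at 79.97 ± 18.7 TPM, each between its levels at the stages compared.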

How the data were processed

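Poly(A) RNA of hand-dissected whole embryos was amplified with a SMARTer low-input kit, per the labels' protocols. The authors deposited one table of TPM values for 18 libraries, 3 for each of 6 stages; per the submitters' processing notes, the tools were Trim Galore 0.6.6 and kallisto 0.44.0 with the TAIR10 genome. Each library has its own column. TPM gives shares of a library, so a rise of some genes lowers others, depth is unknown and small values are imprecise.

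Samples were grouped by the stage in their labels. The filter kept genes that reached 1 TPM in 3 or more of the 6 libraries of the 8-cell and 32-cell stages. The values log2(TPM + 1) were fitted with limma 3.58.1 in R 4.3.3, with 1 mean per stage over all 18 libraries and a variance trend, and the contrast 32-cell minus 8-cell was tested in a two-sided way with Benjamini-Hochberg adjustment over 16559 genes. The threshold for a call was an adjusted p below 0.05. Fold changes are on the TPM + 1 scale and understate changes of low genes. SE is the standard error of the fitted log2 change.

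The 12 largest rises and 12 largest falls were named from the called genes that carry a symbol, reach a mean of 10 TPM in one of the stages and have separate libraries, along with members of 29 gene lists (827 genes). These lists and genes were chosen with earlier results of these data known. No set test was run. Symbols came from a RefSeq gene table of the TAIR10.1 assembly, used for names alone, in which 16479 of the 16559 genes matched. There were 19 alternatives, covering the pseudocount, the filter, scaling, organelle genes, moderation, library weights, the replicate block, the libraries fitted and each library left out.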

Additional observations from a re-analysis of the deposited data

How the results depend on the processing

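Of the 2436 calls, 1893 higher and 543 lower, the total moved by more than 1.5 times with library weights (3874, 2947 higher and 927 lower), without the 2/4-cell and 16-cell libraries (4542, 3526 higher and 1016 lower) and without 32-cell replicate 1. With 1 library left out at a time the total ranged from 1536 to 2266, genes higher from 1224 to 1857 and genes lower from 312 to 437. Genes lower numbered 983 under median-ratio scaling and 1107 under quantile normalization. The 6 libraries alone gave 2949 calls (2254 higher and 695 lower). The cause of these shifts was not tested, although the library weights of the 2/4-cell stage were 0.287 to 0.326 and its spread was the largest (root mean square SD 0.726 on the log2 scale, against 0.489 at the 8-cell and 0.368 at the 32-cell stage). Of the other settings that fitted all 18 libraries, the total lay between 1878 (filter of 5 TPM) and 2486 (pseudocount of 5).

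Same-numbered libraries of the 2 stages deviated together at most weakly (r of 0.0571, 0.118 and 0.0127). For the other pairs r was -0.0884 to 0.0341. Whether the numbers pair the libraries was not tested. Library weights called 1 replication gene and 1 histone gene lower and 1 mitotic gene higher, where the fit reported above called none. The fit of the 6 libraries with the replicate block called 1 replication gene lower and 1 mitotic gene higher. Without the 2/4-cell and 16-cell libraries 1 mitotic gene was called higher. The replicate block gave 2456 calls (1902 higher and 554 lower), and with the 6 libraries alone 3609 (2679 higher and 930 lower).

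Of 208 list or named genes called, 127 kept their call in each of the 19 alternatives that tested them. Over their 3910 alternative values, 3485 kept direction and call, 425 kept the direction alone and 0 reversed. The files hold no counts, so what depth limits could not be measured.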

Other observations

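Some genes of the cell wall, of transport and of the calmodulin family outside the lists above also separated the stages. These families were taken from gene symbols after the values had been seen, and their counts are descriptions. Over all genes 11.4% were called higher and 3.28% lower. Among xyloglucan endotransglucosylases, enzymes that cut and rejoin wall polymers, 4 of 11 tested were called higher and 1 lower, and all 5 calls held in all alternatives that tested them. XTH9 (AT4G03210) stood at 51.4, 42.4 and 68.5 TPM at the 8-cell stage and 605, 449.7 and 379.5 at the 32-cell stage (log2 change 3.12 ± 0.31 SE, limma adjusted p = 1.20e-06), and XTH4 (AT2G06850) stood at 6.89, 5.99 and 9.52 TPM and then 66.3, 54.6 and 74.3 TPM (log2 change 2.98 ± 0.42 SE, limma adjusted p = 6.11e-05). Both had separate stages, while XTH16, described above, went the other way. Of 13 tested expansins 5 were called higher and 2 lower. The calls of EXPA20 (higher) and EXPA9 (lower) were each lost in 8 alternatives, 5 of them with a single library left out, and that of EXPA21 (higher) under quantile normalization. EXPA10 (AT1G26770) stood at 4.89, 5.93 and 0.652 TPM and then 17.3, 22.9 and 19.7 TPM (log2 change 2.36 ± 0.48 SE, limma adjusted p = 0.00212). Of 30 tested arabinogalactan proteins of the cell surface 5 were called higher and 5 lower, but 4 of the higher calls were lost in some alternatives, those of AGP4, AGP9 and FLA1 under median-ratio scaling, and 3 of the lower calls were too. Among those that kept their calls, AGP14 (AT5G56540) stood at 0, 3.12 and 0.740 TPM and then 12.5, 11.3 and 27.2 TPM (log2 change 3.12 ± 0.53 SE, limma adjusted p = 3.64e-04), and AGP12 (AT3G13520) at 55.5, 61.9 and 88.4 TPM and then 18.3, 25.02 and 15.1 TPM (log2 change -1.77 ± 0.32 SE, limma adjusted p = 7.16e-04).

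Of 11 tested aquaporins 3 were called higher and none lower, and kept their calls in all alternatives that tested them, among them PIP2;8 and PIP1;4 (AT4G00430), at 22.8, 27.8 and 33.6 TPM at the 8-cell stage and 160.1, 115 and 179 at the 32-cell stage (log2 change 2.39 ± 0.25 SE, limma adjusted p = 2.02e-06). Of 5 tested SWEET sugar transporters 1, SWEET9, was called higher and kept its call in all alternatives. SWEET1 and SWEET8 were called lower, but neither was still called when 8-cell replicate 3 or 32-cell replicate 1 was left out, nor was SWEET1 without 32-cell replicate 2 (limma adjusted p of at most 0.108 for SWEET1 and 0.0719 for SWEET8). Of 13 tested calmodulins and calmodulin-like proteins 1, CAM9, was called higher and 2, CAM8 and CAM2, lower, with a median change of -0.16. The call of CAM9 was lost in 4 alternatives and that of CAM2 in 9.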
